A study of Mus musculus with 17 samples.

Results

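The genes described here are 38 genes of mitosis and the G2/M transition, given as a list of symbols. The list was drawn up with earlier results of these arrays known, so the counts below describe these genes and are no independent evidence about them. They include mitotic kinases, partners of CDK1, the spindle checkpoint, kinesins, the kinetochore and centromere, the cytokinesis machinery, condensin and topoisomerase II. All 38 had a probe on the array, out of 19057 genes with a probe, and each gene was read from its brightest probe. Total RNA of whole uteri was hybridised to 17 Illumina Mouse WG-6 V2 arrays. Tissue was labelled as taken 0 h, 3 h, 6 h or 24 h from treatment with oestradiol (E2), in mice labelled as wild type for Egr1 (WT) or as Egr1 knockout (KO), where Egr1 is a zinc-finger transcription factor. The WT groups held 2, 3, 2 and 2 arrays in time order and each KO group held 2, which gave 9 WT and 8 KO arrays. E2 was common to all groups after 0 h. The dose, the age of the mice, whether the ovaries had been removed, what the 0 h mice received and how the knockout was made are not stated in the labels. Nothing in them ties the arrays of a group to different mice, so p-values cover only the spread between these arrays, which may be technical.

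Values are log2 signals as deposited, and a difference of 1 means a doubling of the signal. Each change is given with its standard error from a limma model over all 17 arrays. A gene is called where its Benjamini-Hochberg adjusted p, taken over all 19057 genes, is below 0.05. Of the 38 genes, 20 lay above the array median of 8.20 on all 17 arrays. Another 11 lay above it on 9 arrays or fewer, with all their values between 7.93 and 8.81. These 11 dim genes were Ccna2, Cdc25c, Cks2, Bub1, Ttk, Ube2c, Kif20a, Cenpe, Cenpf, Nuf2 and Ncapg.

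As background, a cell enters mitosis when CDK1, bound to a cyclin, is activated, after which Polo-like and Aurora kinases build the spindle. The spindle checkpoint holds back the anaphase-promoting complex until every kinetochore is attached, and the complex then frees the sister chromatids. Most genes of this programme are transcribed late in the cell cycle, and many have promoters with CCAAT boxes, bound by NF-Y, and a cell cycle homology region (CHR), TTTGAA or TTCGAA, bound by MuvB complexes. In the rodent uterus E2 is known to drive a wave of epithelial proliferation about a day after dosing.

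The promoters below are examples, chosen from more genes of the same kind. They are those of 6 genes called higher at 24 h in WT after no earlier called rise, and of Mad2l1, already high at 3 h. Each line gives 130 bases in RefSeq GRCm38.p6, from 100 bases before the annotated start to 30 bases from it. It is read 5′ to 3′ on the gene's own strand, with CCAAT boxes and CHR elements of either strand in capitals. On the opposite strand a CCAAT box is spelled ATTGG. A CHR with the letters TTTGAA is then spelled TTCAAA. The positions were chr10:69352883-69353012, minus strand for Cdk1, chr4:118437314-118437443, minus strand for Cdc20, chr9:61946770-61946899, minus strand for Kif23 and chr11:99024160-99024289, minus strand for Top2a. Those of Cenpa, Prc1 and Mad2l1 were chr5:30666786-30666915, plus strand, chr7:80294351-80294480, plus strand and chr6:66535121-66535250, plus strand, and the Prc1 line is 1 of 2 annotated starts.
Cdk1: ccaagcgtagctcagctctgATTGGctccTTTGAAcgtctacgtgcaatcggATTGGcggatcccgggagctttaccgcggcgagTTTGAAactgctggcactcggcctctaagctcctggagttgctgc
Cdc20: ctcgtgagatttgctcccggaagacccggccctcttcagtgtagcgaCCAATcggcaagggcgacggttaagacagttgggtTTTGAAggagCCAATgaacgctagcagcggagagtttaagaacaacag
Kif23: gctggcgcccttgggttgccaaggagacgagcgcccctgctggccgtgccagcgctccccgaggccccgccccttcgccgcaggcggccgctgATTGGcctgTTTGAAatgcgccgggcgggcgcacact
Top2a: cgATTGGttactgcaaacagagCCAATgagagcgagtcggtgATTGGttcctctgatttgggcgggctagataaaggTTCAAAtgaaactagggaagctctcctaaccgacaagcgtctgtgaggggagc
Cenpa: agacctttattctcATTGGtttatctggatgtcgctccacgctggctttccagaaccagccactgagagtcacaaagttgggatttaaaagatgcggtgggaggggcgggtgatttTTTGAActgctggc
Prc1: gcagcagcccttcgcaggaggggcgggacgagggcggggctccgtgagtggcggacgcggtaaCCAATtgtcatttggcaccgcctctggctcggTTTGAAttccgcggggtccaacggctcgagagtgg
Mad2l1: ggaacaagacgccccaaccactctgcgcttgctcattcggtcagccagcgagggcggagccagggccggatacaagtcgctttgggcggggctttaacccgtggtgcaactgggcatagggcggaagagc
The first 6 hold both a CCAAT box and TTTGAA, and Mad2l1 holds neither. Not all genes called higher at 24 h in WT were like these 6. In the longer windows described next, Birc5, Melk, Ncaph and Nusap1 held neither a CCAAT box nor a CHR. Anln, Kif2c and Ndc80 held no CCAAT box. A relation of motifs to the time of rise was not tested.

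Promoter windows of 300 bases, 250 before to 50 after the start, were available for 32 of the 38 genes. TTTGAA or TTCGAA was found in 24 of the 32 (75.0%), against 21.7% of 27025 genes with such a window. Within 50 bases of the start it was found in 23 (71.9%), against 6.12% of all genes. CCAAT was found in 23 of 32 (71.9% against 41.1%), and both together in 21 (65.6% against 8.61%). GTGGGCG, the core of the sequence that EGR1 is known to bind, was found in 3, Anln, Birc5 and Cks2 (9.38% against 8.99%). Mad2l1, Melk, Ncaph, Nuf2 and Nusap1 held none of these motifs in the window. Motifs were counted separately on both strands, and matches may share end bases. A match describes the letters only, and no match says nothing of the factor.

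At 24 h after E2 most of these genes were high in both genotypes, with a called rise of 0.25 to 1.76 in WT and 0.18 to 3.11 in KO. In WT, 28 of 38 genes were called higher than at 0 h (73.7%) and 0 lower, where 14.2% of all genes were called higher and 14.5% lower. At an unadjusted p below 0.05 limma counted 30 higher and 0 lower in WT, against 35.2% of all genes in either direction. In KO, 30 of 38 were called higher (78.9%) and 0 lower, where 17.3% of all genes were called higher and 17.7% lower. By limma at an unadjusted p below 0.05, KO had 31 higher and 1 lower, against 39.9% of all genes in either direction. The median change was 0.84 in WT and 1.15 in KO, against 0.00 over all genes in each, and 16 genes at least doubled in WT and 21 in KO. With the mean of all probes of a gene in place of the brightest, the medians were 0.53 in WT and 0.69 in KO, and the WT calls of Espl1 and Ndc80 were lost. In a limma fit on the 4 WT arrays at 0 h and 24 h alone, 22 genes were called higher, against 10.5% of all genes. The WT calls lost there were those of Cdk1 (adjusted p = 0.0536), Top2a (0.0664), Prc1 (0.0715), Pbk (0.0817), Spc25 (0.0847) and Ndc80 (0.134). A floor at the array median also ended the WT call of Prc1 (adjusted p = 0.0559). The called genes shared by both numbered 26, which is 92.9% of the WT calls and 86.7% of the KO calls. Cenpa and Cenpf passed the threshold in WT alone, and Ccna2, Ncapg, Bub1b and Ttk in KO alone. For none of those 6 was the difference between the genotypes' changes itself called, with interaction adjusted p from 0.285 for Ncapg to 0.668 for Cenpa.

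Mad2l1 apart, no called rise came before 24 h. From 6 h to 24 h, 30 genes were called higher in WT (78.9%, where 14.7% of all genes were called higher) and 29 in KO (76.3%, against 15%). These changes share their 24 h arrays with those from 0 h. The median change from 6 h was 1.19 in WT and 1.27 in KO. With the mean of all probes of a gene it was 0.65 and 0.75. In 32 of 38 genes both 24 h groups had the highest means, and in 29 all 4 arrays at 24 h lay above all the others. How often this held over all genes was not counted, so these counts only describe the 38 genes. In whole tissue, more dividing cells and more RNA per cell cannot be told apart.

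**Figure D1:**
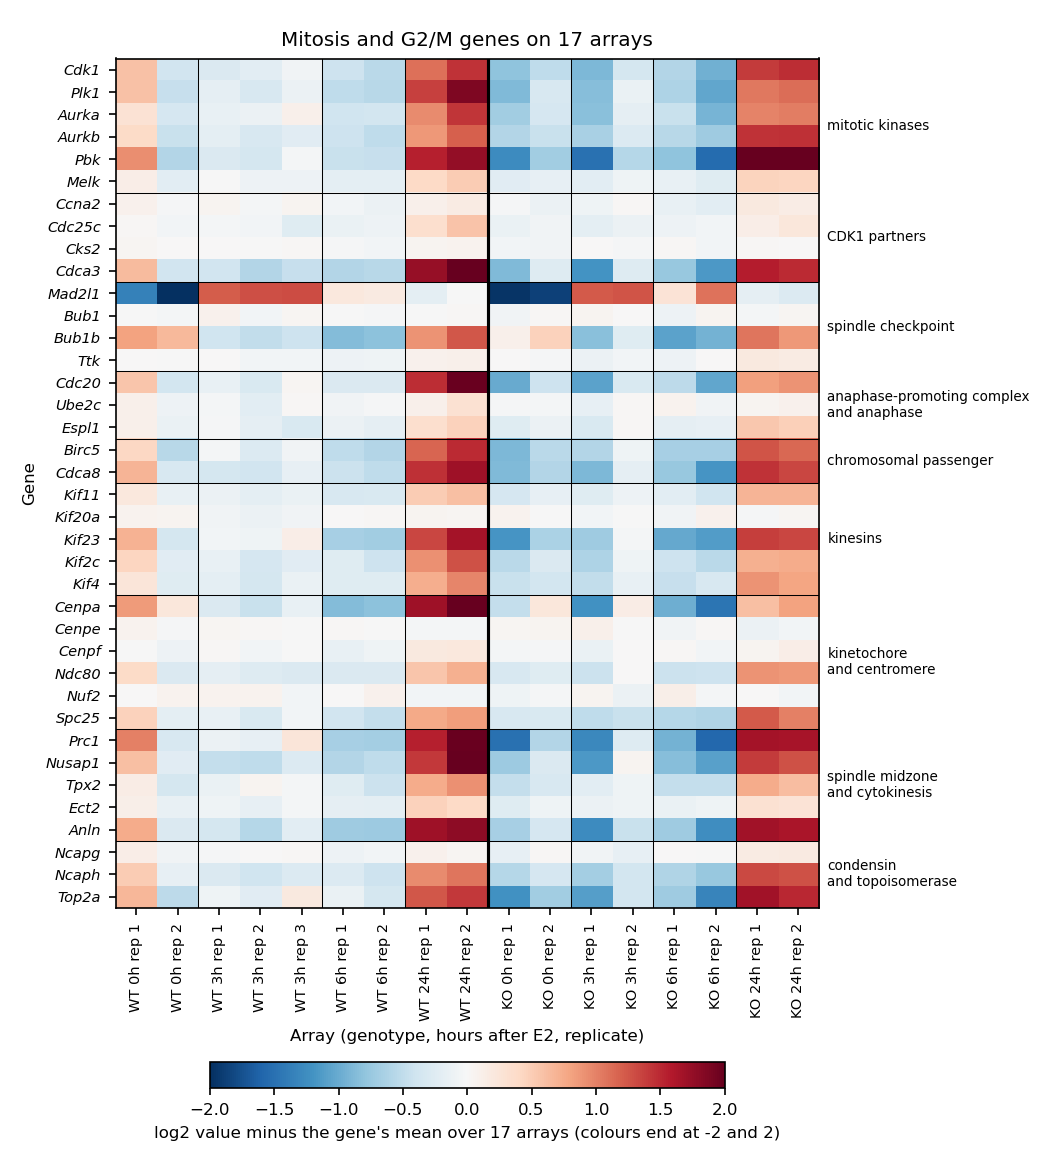
Log2 value of each of the 38 genes (vertical axis, grouped by role) on each of the 17 arrays (horizontal axis), minus the gene's mean over the arrays. The 4 arrays at 24 h are the red columns for most genes, Mad2l1 is red at 3 h and 6 h, and the WT 0 h replicate 1 array is redder than replicate 2.

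Among the 27 genes that were not dim, 26 were called higher at 24 h in each genotype. Of the 11 dim genes 2 were called in WT and 4 in KO. Of all genes, 14.2% were called higher in WT and 17.3% in KO. The 24 h arrays counted in the definition of dim, so a gene that rose at 24 h was less likely to be dim. The split by brightness is therefore no result about signal and rise. By role, with each gene counted once, all 6 mitotic kinases, Aurkb included, were called in each genotype. So were both other chromosomal passenger genes and all 5 genes grouped under the spindle midzone and cytokinesis. The kinesins were called in 4 of 5 in each, and the genes of anaphase-promoting complex and anaphase in 2 of 3. The partners of CDK1 counted 2 of 4 in WT and 3 of 4 in KO, the spindle checkpoint 1 of 4 and 3 of 4, and the condensin and topoisomerase genes 2 of 3 and 3 of 3. The kinetochore and centromere genes counted 4 of 6 in WT and 2 of 6 in KO.

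The mitotic kinases all rose at 24 h, and Pbk rose most in KO. Cdk1, the kinase that starts mitosis, gave 9.91 and 8.94 at 0 h, 9.03, 9.11 and 9.26 at 3 h, 8.91 and 8.79 at 6 h, and 10.43 and 10.78 at 24 h on WT arrays. KO arrays of Cdk1 gave 8.53 and 8.81 at 0 h, 8.42 and 8.97 at 3 h, 8.74 and 8.37 at 6 h, and 10.73 and 10.81 at 24 h. All 4 arrays at 24 h lay above every earlier array. Its change at 24 h was 1.18 ± 0.25 (adjusted p = 0.00219) in WT and 2.10 ± 0.25 (adjusted p = 1.05e-05) in KO. Aurkb, the kinase of the chromosomal passenger complex, read 9.31 and 8.49 at 0 h, 8.74, 8.61 and 8.71 at 3 h, 8.52 and 8.42 at 6 h, and 9.80 and 10.12 at 24 h in WT. KO arrays of Aurkb read 8.34 and 8.48 at 0 h, 8.28 and 8.66 at 3 h, 8.37 and 8.21 at 6 h, and 10.38 and 10.39 at 24 h, so the KO values at 24 h lay above both WT values. Its change was 1.06 ± 0.20 (adjusted p = 8.28e-04) in WT and 1.98 ± 0.20 (adjusted p = 2.30e-06) in KO. Pbk, a kinase of mitotic cells, stood at 10.73 and 9.22 at 0 h, 9.52, 9.45 and 9.77 at 3 h, 9.36 and 9.35 at 6 h, and 11.36 and 11.57 at 24 h in WT. KO values for Pbk were 8.55 and 9.11 at 0 h, 8.31 and 9.23 at 3 h, 9.0 and 8.27 at 6 h, and 12.04 and 11.85 at 24 h. The KO arrays were lower than every WT array up to 6 h at the same time and higher at 24 h. Pbk changed by 1.49 ± 0.39 (adjusted p = 0.00954) in WT and by 3.11 ± 0.39 (adjusted p = 1.80e-05) in KO. Without the WT 0 h replicate 2 array the WT change of Pbk was 0.73 and no longer called, without replicate 1 it was 2.25, and without WT 24 h replicate 2 it was 1.38 and not called. The changes of Cdk1 and Aurkb were 0.69 and 0.65 without WT 0 h replicate 2, both still called. Plk1, which drives centrosome maturation and spindle assembly, changed by 1.56 in WT and 1.68 in KO. Aurka, the centrosomal Aurora kinase, changed by 1.21 and 1.52, and Melk, another kinase of dividing cells, by 0.50 (0.32 and still called without WT 0 h replicate 2) and 0.63.

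Among the genes grouped as partners of CDK1, Cdca3 rose strongly and the other 3 probes were dim. Cdca3, which takes part in degradation of the WEE1 kinase, gave 10.05 and 9.02 at 0 h, 9.02, 8.82 and 8.94 at 3 h, 8.81 and 8.85 at 6 h, and 11.15 and 11.44 at 24 h in WT. KO arrays of Cdca3 gave 8.52 and 9.14 at 0 h, 8.21 and 9.15 at 3 h, 8.64 and 8.26 at 6 h, and 10.97 and 10.90 at 24 h. All 24 h arrays stood well above every other array. Its change of 1.76 ± 0.31 (adjusted p = 5.75e-04) was the largest called in WT, and in KO it was 2.11 ± 0.31 (adjusted p = 7.04e-05). Cdc25c, a phosphatase that activates CDK1, read 8.25 and 8.18 at 0 h, 8.19, 8.18 and 7.98 at 3 h, 8.10 and 8.12 at 6 h, and 8.57 and 8.81 at 24 h in WT. KO arrays of Cdc25c read 8.09 and 8.16 at 0 h, 8.04 and 8.11 at 3 h, 8.12 and 8.17 at 6 h, and 8.37 and 8.45 at 24 h. Both WT values at 24 h, 8.57 and 8.81, were above the KO values and these above all earlier arrays. It rose by 0.48 ± 0.08 (adjusted p = 4.81e-04) in WT and by 0.28 ± 0.08 (adjusted p = 0.0129) in KO, and the KO call was lost without KO 0 h replicate 1 or KO 24 h replicate 2. Ccna2, the S and G2 cyclin A2, stood at 8.27 and 8.16 at 0 h, 8.24, 8.15 and 8.24 at 3 h, 8.12 and 8.07 at 6 h, and 8.29 and 8.35 at 24 h in WT. KO values for Ccna2 were 8.17 and 8.07 at 0 h, 8.09 and 8.21 at 3 h, 8.03 and 7.97 at 6 h, and 8.38 and 8.33 at 24 h. The WT groups at 0 h and 24 h nearly met, and the KO groups were clearly apart. The change was 0.10 ± 0.06 (adjusted p = 0.282) in WT and 0.24 ± 0.06 (adjusted p = 0.00754) in KO, where leaving out KO 0 h replicate 2 or KO 24 h replicate 1 ended the call. Cks2, a small subunit that binds CDK1, stayed between 8.12 and 8.27 and was called in no comparison.

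The spindle checkpoint genes did not move alike. Mad2l1 encodes MAD2, which inhibits CDC20 at unattached kinetochores. WT arrays of Mad2l1 gave 10.14 and 9.30 at 0 h, 12.70, 12.79 and 12.79 at 3 h, 11.71 and 11.68 at 6 h, and 11.30 and 11.48 at 24 h. KO arrays of Mad2l1 gave 9.54 and 9.62 at 0 h, 12.72 and 12.74 at 3 h, 11.76 and 12.57 at 6 h, and 11.31 and 11.22 at 24 h. All later arrays were above the 0 h arrays, and the 3 h arrays were the highest in both genotypes. At 3 h it had changed by 3.04 ± 0.21 (adjusted p = 6.41e-08) in WT and by 3.15 ± 0.23 (adjusted p = 1.95e-07) in KO. Mad2l1 was the only gene of the 38 called higher at 3 h or at 6 h. At 6 h the change from 0 h was 1.97 ± 0.23 (adjusted p = 1.07e-05) in WT and 2.59 ± 0.23 (adjusted p = 8.19e-07) in KO. It was 1.67 and 1.68 at 24 h, both called. Between 6 h and 24 h it fell in KO, by -0.90 ± 0.23 (adjusted p = 0.00813), a call lost without KO 24 h replicate 2 and without KO 6 h replicate 2, where it was -0.50. In WT the step from 6 h to 24 h was -0.31 ± 0.23 (adjusted p = 0.415). Its other probe, with a mean of 10.4, changed by 2.33 at 3 h in WT.

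Bub1b encodes BUBR1, a part of the mitotic checkpoint complex. It stood at 10.70 and 10.54 at 0 h, 9.50, 9.40 and 9.49 at 3 h, 9.03 and 9.09 at 6 h, and 10.81 and 11.15 at 24 h in WT. KO values for Bub1b were 10.00 and 10.36 at 0 h, 9.06 and 9.66 at 3 h, 8.83 and 8.96 at 6 h, and 10.96 and 10.77 at 24 h. In both genotypes the 3 h and 6 h arrays lay below the 0 h arrays and the 24 h arrays above them. Bub1b fell at 3 h, with a change of -1.16 ± 0.15 (adjusted p = 2.13e-05) in WT and -0.82 ± 0.16 (adjusted p = 0.00122) in KO, the latter -0.52 and still called without KO 3 h replicate 1. At 6 h the change was -1.56 ± 0.16 (adjusted p = 3.94e-06) in WT and -1.28 ± 0.16 (adjusted p = 1.98e-05) in KO. At 24 h it was 0.35 ± 0.16 (adjusted p = 0.142) in WT and 0.69 ± 0.16 (adjusted p = 0.00372) in KO, and the KO call was lost without KO 0 h replicate 1. From 6 h to 24 h Bub1b rose by 1.92 ± 0.16 (adjusted p = 1.20e-06) in WT and by 1.98 ± 0.16 (adjusted p = 1.08e-06) in KO. Ttk, the checkpoint kinase MPS1, was dim, with values of 8.17 and 8.16 at 0 h, 8.17, 8.10 and 8.11 at 3 h, 8.06 and 8.07 at 6 h, and 8.25 and 8.26 at 24 h in WT. KO values for Ttk were 8.17 and 8.14 at 0 h, 8.04 and 8.10 at 3 h, 8.06 and 8.17 at 6 h, and 8.35 and 8.32 at 24 h. The 24 h arrays were the highest of each genotype by small margins. Its change at 24 h was 0.09 ± 0.05 (adjusted p = 0.237) in WT and 0.18 ± 0.05 (adjusted p = 0.0139) in KO, the latter lost without KO 0 h replicate 2 or KO 24 h replicate 1. Bub1, another checkpoint kinase, stayed between 8.06 and 8.25 and was called nowhere.

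Of the genes of anaphase, Cdc20 and Espl1 rose and Ube2c was not called. Cdc20, which activates the anaphase-promoting complex, gave 10.36 and 9.43 at 0 h, 9.66, 9.49 and 9.83 at 3 h, 9.51 and 9.51 at 6 h, and 11.28 and 11.77 at 24 h in WT. KO arrays of Cdc20 gave 8.79 and 9.38 at 0 h, 8.73 and 9.49 at 3 h, 9.27 and 8.76 at 6 h, and 10.61 and 10.70 at 24 h. Both WT arrays at 24 h, at 11.28 and 11.77, were above the KO arrays. It changed by 1.63 ± 0.30 (adjusted p = 7.75e-04) in WT and by 1.57 ± 0.30 (adjusted p = 6.53e-04) in KO. Espl1, the separase that cuts cohesin, read 8.46 and 8.22 at 0 h, 8.33, 8.19 and 8.05 at 3 h, 8.25 and 8.18 at 6 h, and 8.69 and 8.81 at 24 h in WT. KO arrays of Espl1 read 8.12 and 8.23 at 0 h, 8.06 and 8.38 at 3 h, 8.18 and 8.20 at 6 h, and 8.90 and 8.84 at 24 h. The 24 h arrays were above all others in both genotypes. The change was 0.41 ± 0.11 (adjusted p = 0.00983) in WT and 0.69 ± 0.11 (adjusted p = 1.27e-04) in KO, and the WT value was 0.29 without WT 0 h replicate 2 and 0.35 without WT 24 h replicate 2, neither called. Ube2c, the ubiquitin-conjugating enzyme of the complex, stood at 8.24 and 8.04 at 0 h, 8.11, 7.93 and 8.17 at 3 h, 8.08 and 8.13 at 6 h, and 8.25 and 8.46 at 24 h in WT. KO values for Ube2c were 8.12 and 8.11 at 0 h, 7.99 and 8.16 at 3 h, 8.21 and 8.08 at 6 h, and 8.20 and 8.24 at 24 h. In WT the lower 24 h array barely exceeded the higher 0 h array, and in KO the 24 h and 6 h arrays overlapped. The change at 24 h was 0.21 ± 0.09 (adjusted p = 0.127) in WT, 0.31 and called without WT 0 h replicate 1, and 0.10 ± 0.09 (adjusted p = 0.511) in KO.

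Both genes grouped under the chromosomal passenger complex rose, as did its kinase Aurkb, given above with the mitotic kinases. Birc5, survivin, gave 9.71 and 8.74 at 0 h, 9.25, 9.02 and 9.22 at 3 h, 8.79 and 8.70 at 6 h, and 10.46 and 10.79 at 24 h in WT. KO arrays of Birc5 gave 8.40 and 8.76 at 0 h, 8.70 and 9.21 at 3 h, 8.63 and 8.63 at 6 h, and 10.55 and 10.45 at 24 h. Every 24 h array was above every other array. Birc5 changed by 1.40 ± 0.24 (adjusted p = 4.54e-04) in WT and by 1.92 ± 0.24 (adjusted p = 1.56e-05) in KO. Cdca8, borealin, read 10.22 and 9.23 at 0 h, 9.20, 9.17 and 9.39 at 3 h, 9.11 and 9.03 at 6 h, and 11.01 and 11.24 at 24 h in WT. KO arrays of Cdca8 read 8.66 and 8.96 at 0 h, 8.65 and 9.36 at 3 h, 8.79 and 8.37 at 6 h, and 10.99 and 10.88 at 24 h. The 24 h arrays of both genotypes lay together, between 10.88 and 11.24. Cdca8 changed by 1.40 ± 0.27 (adjusted p = 0.00101) in WT and by 2.13 ± 0.27 (adjusted p = 1.62e-05) in KO. Without WT 0 h replicate 2 both WT changes were 0.91 and still called.

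Of the kinesins, Kif11, Kif23, Kif2c and Kif4 rose and Kif20a, a dim probe, did not. Kif11, the motor that separates the spindle poles, gave 8.68 and 8.33 at 0 h, 8.36, 8.28 and 8.33 at 3 h, 8.14 and 8.16 at 6 h, and 8.98 and 9.08 at 24 h in WT. KO arrays of Kif11 gave 8.13 and 8.31 at 0 h, 8.23 and 8.37 at 3 h, 8.26 and 8.07 at 6 h, and 9.15 and 9.15 at 24 h. The 24 h arrays were the highest in each genotype. Kif11 changed by 0.52 ± 0.10 (adjusted p = 0.00115) in WT and by 0.93 ± 0.10 (adjusted p = 4.90e-06) in KO. Kif23, the centralspindlin motor of cytokinesis, read 10.97 and 9.94 at 0 h, 10.23, 10.20 and 10.41 at 3 h, 9.61 and 9.59 at 6 h, and 11.62 and 11.94 at 24 h in WT. KO arrays of Kif23 read 9.10 and 9.66 at 0 h, 9.57 and 10.24 at 3 h, 9.27 and 9.17 at 6 h, and 11.66 and 11.61 at 24 h. At 24 h the 4 arrays lay between 11.61 and 11.94, while at 0 h both KO arrays were below both WT arrays. Kif23 changed by 1.33 ± 0.27 (adjusted p = 0.00181) in WT and by 2.26 ± 0.27 (adjusted p = 1.20e-05) in KO. Kif4, a chromosome-bound kinesin, stood at 8.95 and 8.47 at 0 h, 8.52, 8.37 and 8.58 at 3 h, 8.47 and 8.47 at 6 h, and 9.44 and 9.69 at 24 h in WT. KO values for Kif4 were 8.27 and 8.35 at 0 h, 8.23 and 8.56 at 3 h, 8.24 and 8.39 at 6 h, and 9.61 and 9.51 at 24 h. The values at 24 h overlapped between the genotypes and lay above all earlier ones. Kif4 changed by 0.85 ± 0.14 (adjusted p = 3.41e-04) in WT and by 1.25 ± 0.14 (adjusted p = 6.47e-06) in KO. Kif20a, a kinesin of the midzone, stood at 8.25 and 8.22 at 0 h, 8.10, 8.06 and 8.10 at 3 h, 8.19 and 8.20 at 6 h, and 8.24 and 8.21 at 24 h in WT. KO values for Kif20a were 8.25 and 8.16 at 0 h, 8.12 and 8.17 at 3 h, 8.11 and 8.27 at 6 h, and 8.15 and 8.21 at 24 h. All its values lay between 8.06 and 8.27, and its change at 24 h was -0.01 in WT and -0.03 in KO. Kif2c, the microtubule depolymerase MCAK, changed by 1.00 in WT and 1.14 in KO, both called. Without WT 0 h replicate 2 the WT changes of Kif11 and Kif23 were 0.35 and 0.81, both still called.

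At the kinetochore and centromere Ndc80 and Spc25 were called higher at 24 h in both genotypes, Cenpa and Cenpf in WT, and Cenpe and Nuf2 in neither. Cenpa, the histone H3 variant that marks centromeres, gave 11.54 and 10.92 at 0 h, 10.40, 10.24 and 10.55 at 3 h, 9.82 and 9.86 at 6 h, and 12.39 and 12.80 at 24 h in WT. KO arrays of Cenpa gave 10.21 and 10.91 at 0 h, 9.47 and 10.84 at 3 h, 9.72 and 9.23 at 6 h, and 11.30 and 11.49 at 24 h. Its group mean was lowest at 6 h and highest at 24 h in both genotypes, and at 24 h both KO arrays were below both WT arrays. Its change at 24 h was 1.37 ± 0.35 (adjusted p = 0.00762) in WT and 0.83 ± 0.35 (adjusted p = 0.0827) in KO. The WT change was 1.05 without WT 0 h replicate 2 and 1.16 without WT 24 h replicate 2, neither called, and the KO change was 1.18 and called without KO 0 h replicate 2. From 6 h it rose by 2.75 ± 0.35 (adjusted p = 2.97e-05) in WT and by 1.92 ± 0.35 (adjusted p = 6.12e-04) in KO. Ndc80, the microtubule-binding subunit of the outer kinetochore, read 9.0 and 8.32 at 0 h, 8.43, 8.34 and 8.32 at 3 h, 8.32 and 8.32 at 6 h, and 9.16 and 9.32 at 24 h in WT. KO arrays of Ndc80 read 8.29 and 8.36 at 0 h, 8.18 and 8.61 at 3 h, 8.18 and 8.20 at 6 h, and 9.51 and 9.47 at 24 h. In WT the 0 h replicate 1 array came close to the 24 h arrays, and the KO arrays at 24 h were above the WT arrays. The change was 0.58 ± 0.16 (adjusted p = 0.0145) in WT and 1.16 ± 0.16 (adjusted p = 4.95e-05) in KO. The WT change was 0.92 without WT 0 h replicate 1, and 0.24 without replicate 2 and 0.50 without WT 24 h replicate 2, the last pair not called. Spc25, of the same complex, stood at 9.36 and 8.69 at 0 h, 8.74, 8.59 and 8.84 at 3 h, 8.51 and 8.41 at 6 h, and 9.65 and 9.72 at 24 h in WT. KO values for Spc25 were 8.56 and 8.59 at 0 h, 8.38 and 8.44 at 3 h, 8.32 and 8.29 at 6 h, and 10.12 and 9.90 at 24 h. Both KO arrays at 24 h were above both WT arrays. Spc25 changed by 0.66 ± 0.15 (adjusted p = 0.00369) in WT and by 1.43 ± 0.15 (adjusted p = 3.68e-06) in KO, and the WT change was 0.99 without WT 0 h replicate 1 and 0.33 without replicate 2. Cenpf, dim, changed by 0.25 ± 0.06 (adjusted p = 0.00490) in WT, which was 0.21 and not called without WT 0 h replicate 2, and by 0.12 ± 0.06 (adjusted p = 0.154) in KO. Cenpe, a kinetochore kinesin, and Nuf2, the partner of NDC80, changed by at most 0.12 at 24 h and were called nowhere.

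All 5 genes grouped under the spindle midzone and cytokinesis rose in both genotypes. Nusap1, a protein that bundles spindle microtubules, gave 10.06 and 9.24 at 0 h, 9.0, 8.96 and 9.19 at 3 h, 8.87 and 8.95 at 6 h, and 10.87 and 11.45 at 24 h in WT. KO arrays of Nusap1 gave 8.73 and 9.17 at 0 h, 8.31 and 9.52 at 3 h, 8.61 and 8.38 at 6 h, and 10.86 and 10.74 at 24 h. The 24 h arrays were the highest of each genotype, and the KO 3 h arrays lay far apart. Nusap1 changed by 1.51 ± 0.32 (adjusted p = 0.00227) in WT and by 1.85 ± 0.32 (adjusted p = 3.00e-04) in KO. Tpx2, which activates Aurora A on the spindle, read 8.71 and 8.21 at 0 h, 8.43, 8.63 and 8.53 at 3 h, 8.32 and 8.14 at 6 h, and 9.31 and 9.49 at 24 h in WT. KO arrays of Tpx2 read 8.09 and 8.25 at 0 h, 8.36 and 8.48 at 3 h, 8.10 and 8.10 at 6 h, and 9.30 and 9.19 at 24 h. Its 24 h arrays lay above all others. Tpx2 had the lowest adjusted p of the 38 genes in WT, with a change of 0.94 ± 0.13 (adjusted p = 8.01e-05), and in KO it was 1.08 ± 0.13 (adjusted p = 1.09e-05). Anln, anillin of the contractile ring, stood at 10.54 and 9.51 at 0 h, 9.44, 9.23 and 9.59 at 3 h, 9.08 and 9.07 at 6 h, and 11.49 and 11.59 at 24 h in WT. KO values for Anln were 9.14 and 9.46 at 0 h, 8.54 and 9.36 at 3 h, 9.08 and 8.55 at 6 h, and 11.47 and 11.43 at 24 h. The 4 arrays at 24 h lay between 11.43 and 11.59. Anln changed by 1.51 ± 0.29 (adjusted p = 0.00104) in WT and by 2.16 ± 0.29 (adjusted p = 3.01e-05) in KO, and the WT change was 1.00 without WT 0 h replicate 2. Prc1, the bundler of antiparallel midzone microtubules, changed by 1.42 ± 0.40 (adjusted p = 0.0144) in WT and by 2.69 ± 0.40 (adjusted p = 8.26e-05) in KO. The WT change of Prc1 was 0.76 without WT 0 h replicate 2 and 1.21 without WT 24 h replicate 2, neither called. Ect2, which activates RhoA at the cleavage site, changed by 0.44 in WT and 0.45 in KO, both called.

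Ncaph and Top2a rose in both genotypes, and Ncapg was dim. Ncaph, a condensin I subunit that compacts chromosomes, gave 9.84 and 9.17 at 0 h, 9.04, 8.93 and 9.06 at 3 h, 9.05 and 8.92 at 6 h, and 10.27 and 10.40 at 24 h in WT. KO arrays of Ncaph gave 8.75 and 9.0 at 0 h, 8.64 and 8.96 at 3 h, 8.74 and 8.57 at 6 h, and 10.65 and 10.61 at 24 h. The KO arrays were below the WT arrays at 0 h and above them at 24 h. Ncaph changed by 0.83 ± 0.16 (adjusted p = 0.00139) in WT and by 1.76 ± 0.16 (adjusted p = 1.54e-06) in KO. Top2a, the topoisomerase that untangles sister chromatids, read 10.19 and 9.0 at 0 h, 9.45, 9.30 and 9.72 at 3 h, 9.40 and 9.18 at 6 h, and 10.78 and 10.95 at 24 h in WT. KO arrays of Top2a read 8.32 and 8.83 at 0 h, 8.44 and 9.16 at 3 h, 8.82 and 8.21 at 6 h, and 11.21 and 11.04 at 24 h. The KO arrays were below every WT array at 0 h and above both at 24 h. Top2a changed by 1.27 ± 0.32 (adjusted p = 0.00798) in WT, which was 0.67 without WT 0 h replicate 2 and 1.18 without WT 24 h replicate 2, neither called, and by 2.55 ± 0.32 (adjusted p = 1.93e-05) in KO. Ncapg, another condensin I subunit, stood at 8.25 and 8.05 at 0 h, 8.09, 8.12 and 8.13 at 3 h, 8.01 and 8.06 at 6 h, and 8.20 and 8.16 at 24 h in WT. KO values for Ncapg were 7.96 and 8.14 at 0 h, 8.04 and 7.96 at 3 h, 8.12 and 8.10 at 6 h, and 8.29 and 8.29 at 24 h. It changed by 0.03 ± 0.07 (adjusted p = 0.864) in WT and by 0.24 ± 0.07 (adjusted p = 0.0154) in KO, and the KO call was lost without KO 0 h replicate 1, KO 24 h replicate 1 or KO 24 h replicate 2. The WT change of Ncaph was 0.49 and still called without WT 0 h replicate 2.

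**Figure D2:**
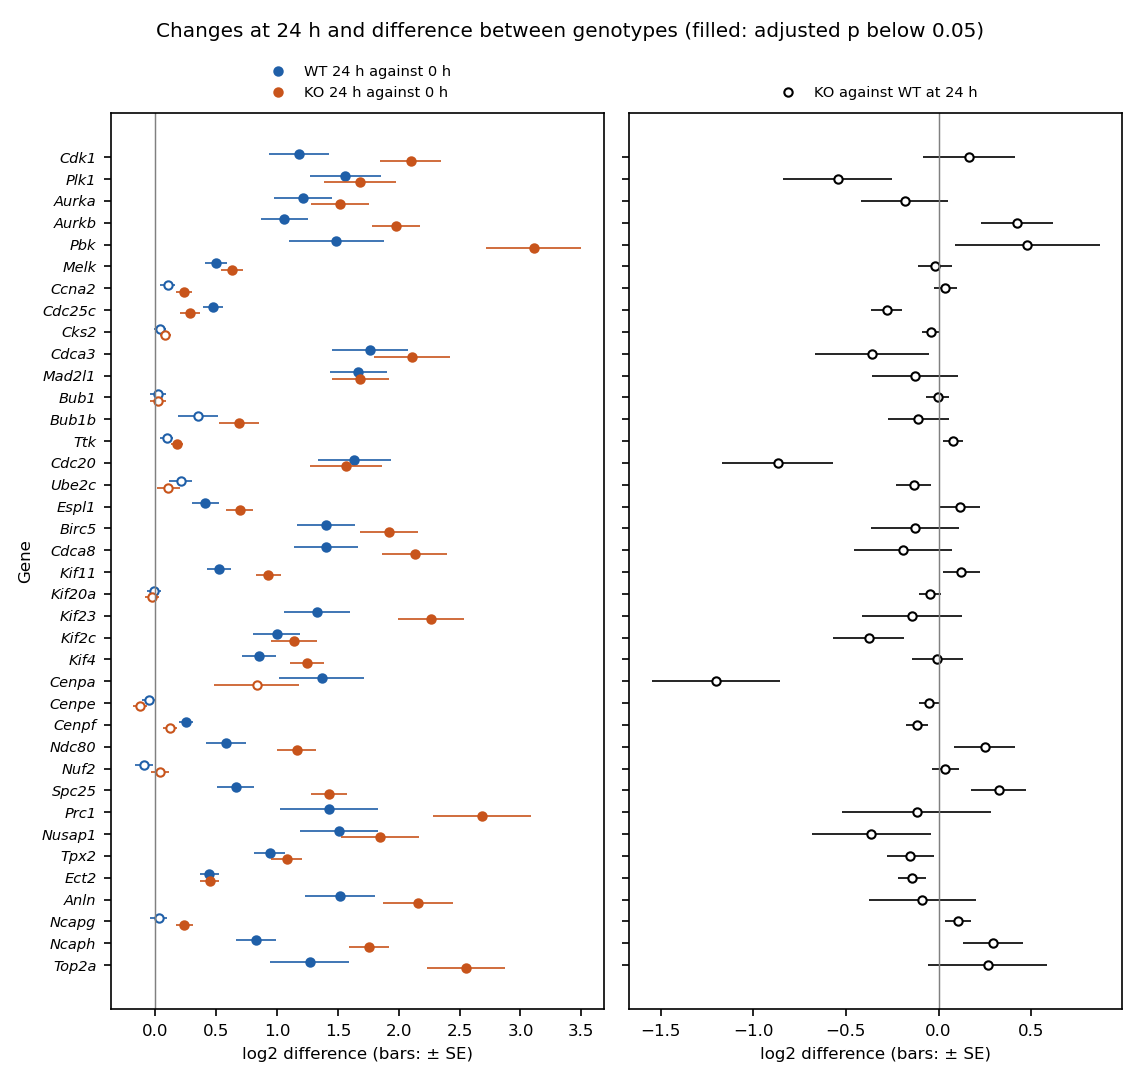
Left, log2 change from 0 h to 24 h of each of the 38 genes in WT (blue) and KO (orange). Right, KO minus WT at 24 h. Points are limma estimates, bars 1 SE, and filled points have an adjusted p below 0.05. In the left panel 28 WT and 30 KO points are filled, and in the right panel none is, with Cenpa farthest left at -1.20.

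Before 24 h fewer of these genes were called than at 24 h. At 3 h WT had 1 called higher and 3 lower, where 17.3% of all genes were called higher and 18.8% lower, and KO had 1 of each, against 14.6% and 16.3%. At 6 h WT had 1 higher and 7 lower, against 16.7% and 16.9%, and KO 1 higher and 2 lower, against 16.6% and 17.7%. Mad2l1 was the gene called higher each time. The 7 called lower in WT at 6 h were near the share of all genes. At an unadjusted p below 0.05 limma counted 1 higher and 7 lower in WT at 3 h, and 1 and 15 at 6 h. Of all genes, 42% and 39.6% passed in either direction. In KO it counted 1 and 1 at 3 h, and 1 and 2 at 6 h, against 37.6% and 39.8%. In WT 34 of 38 changes were below 0 at 3 h and 35 at 6 h, and in KO 15 and 25. Bub1b was called lower at both times in both genotypes, and Cenpa at 6 h in both, with changes of -1.39 ± 0.35 (adjusted p = 0.00547) in WT and -1.09 ± 0.35 (adjusted p = 0.0238) in KO. The Cenpa call was lost in WT without WT 0 h replicate 1 (-1.07), and in KO without KO 0 h replicate 2 (-0.74) or KO 6 h replicate 2 (-0.84). The other probe of Cenpa, with a mean of 8.15, changed by -0.11 in WT and 0.01 in KO at 6 h. The other WT calls at 6 h were Kif11 (-0.35), Kif23 (-0.85), Spc25 (-0.56), Anln (-0.95) and Ncaph (-0.52). Without the WT 0 h replicate 1 array those 5 changes were -0.17, -0.33, -0.23, -0.44 and -0.18, none of them called. Without WT 0 h replicate 2 they were -0.53, -1.37, -0.89, -1.47 and -0.86, all called. Leaving out WT 6 h replicate 1 ended 4 of the 5 calls and leaving out WT 6 h replicate 2 ended all 5. Other probes of these genes did not all fall in WT at 6 h. They changed by 0.01 for Kif11, by 0.04 and -0.01 for Anln, and by -0.03, -0.44 and -0.08 for Kif23. Those of Spc25 and Ncaph changed by -0.43 and -0.44. At 3 h the remaining WT calls were Ncaph, at -0.50 ± 0.15 (adjusted p = 0.0163), and Kif20a, at -0.15 ± 0.05 (adjusted p = 0.0377). Ncaph was at -0.16 and not called without WT 0 h replicate 1, at -0.46 and not called without WT 3 h replicate 2, and at -0.84 and called without WT 0 h replicate 2. The Kif20a call was lost whichever of the 5 arrays was left out.

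The median falls in WT turned on the 0 h arrays, while the WT falls of Bub1b stayed called whichever array was left out. Replicate 1 of WT 0 h was above replicate 2 in 37 of the 38 genes, with a median gap of 0.62, while 46.2% of all genes were higher in replicate 1. As the mean over the 38 genes relative to each gene's mean on the 17 arrays, replicate 1 stood at 0.32 and replicate 2 at -0.24. Without replicate 1, the WT median changes were 0.05 at 3 h and -0.04 at 6 h, in place of -0.16 and -0.34. Without replicate 2 they were -0.50 and -0.67. At 24 h the WT median was 1.13 without replicate 1 and 0.56 without replicate 2. KO 0 h, KO 3 h and WT 24 h also differed within the group, with replicate 2 above replicate 1 in 33 of 38 genes in each. The gaps had a median of 0.17, 0.33 and 0.18. Of all genes, 53.9%, 50.2% and 48.7% were higher in replicate 1. In WT 3 h replicate 1 was above replicate 2 in 33 genes, by a median of 0.09, where 49.6% of all genes were.

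**Figure D3:**
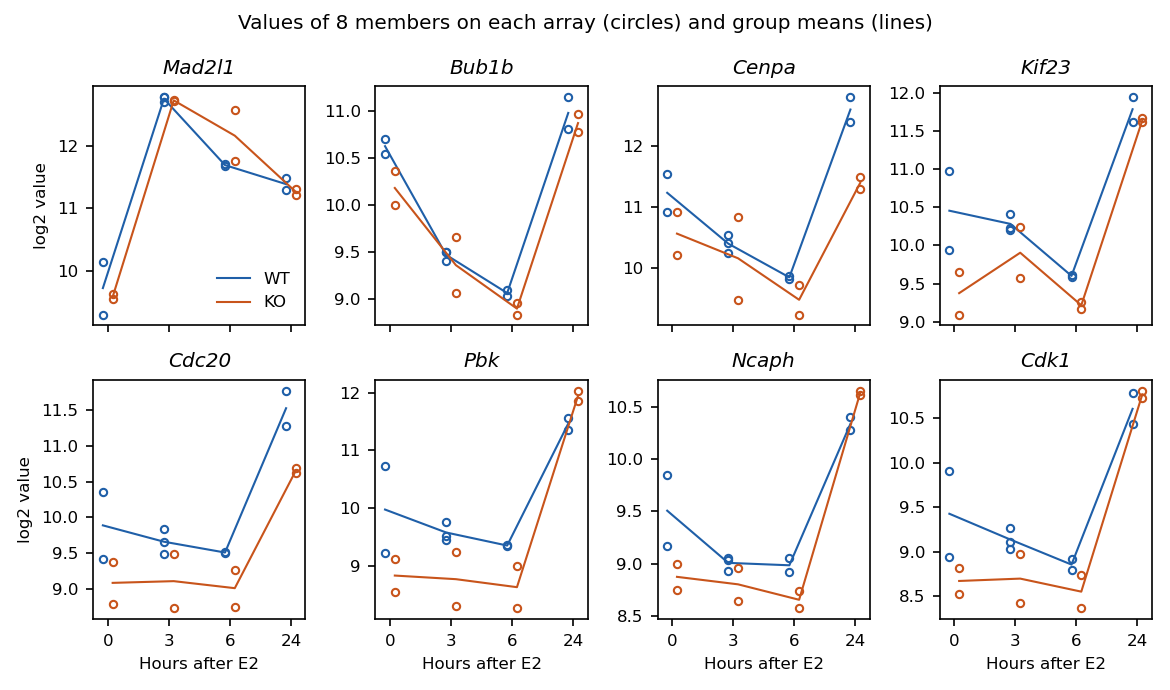
Log2 value of 8 of the genes (vertical axes) on each array against hours after E2 (4 times, evenly spaced), for WT (blue) and KO (orange), with lines through the group means. Mad2l1 peaks at 3 h near 12.7, and the group means of all the others are lowest at 6 h and highest at 24 h in both genotypes.

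The KO and WT arrays were compared at each time for a difference in these genes between the Egr1 genotypes. At 24 h 0 of 38 genes were called, where 6.18% of all genes were. By limma at an unadjusted p below 0.05, 2 were higher and 3 lower in KO, against 17.2% of all genes. The median difference was -0.07, against 0.00 over all genes, with 13 genes above 0 and 25 below, and it turned to 0.03 without WT 24 h replicate 2. Cenpa had the lowest adjusted p, with KO minus WT of -1.20 ± 0.35 (adjusted p = 0.0572), arrays of 11.30 and 11.49 in KO and 12.39 and 12.80 in WT. Cdc20 differed by -0.87 ± 0.30 (adjusted p = 0.116) and Cdc25c by -0.28 ± 0.08 (adjusted p = 0.0598), with KO lower on both arrays. Aurkb differed by 0.42 ± 0.20 (adjusted p = 0.282) and Spc25 by 0.32 ± 0.15 (adjusted p = 0.282), with KO higher on both arrays. The groups did not overlap in 11 genes that were higher in KO and 16 that were lower, or 28.9% and 42.1%, where 26.8% and 27.3% of all genes did so. In a fit on the 4 arrays at 24 h alone, 6 genes were called higher in KO (Aurkb, Pbk, Ndc80, Spc25, Ncaph and Top2a) and 6 lower (Plk1, Cdc25c, Cdca3, Cdc20, Kif2c and Cenpa), where 7.73% of all genes were called higher in that fit and 8.34% lower. Their differences there ran from 0.25 for Ndc80 to 0.48 for Pbk and from -0.28 for Cdc25c to -1.20 for Cenpa.

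At 0 h KO was called lower in 1 gene and higher in 0, where 1.57% of all genes were called lower and 1.62% higher. At an unadjusted p below 0.05 limma counted 20 lower and 0 higher, against 15.4% of all genes. The called gene was Kif23, at -1.08 ± 0.27 (adjusted p = 0.0474), and its call was lost without KO 0 h replicate 1 (-0.80), KO 0 h replicate 2 (-1.36) or WT 0 h replicate 1 (-0.56). Other probes of Kif23 differed by -0.03, -0.61 and -0.03 at 0 h. The median difference at 0 h was -0.42, with 36 genes below 0. Without WT 0 h replicate 1 it was -0.12, and without replicate 2 it was -0.65. At 3 h and at 6 h 0 genes were called, where 3.13% and 0.472% of all genes were. By limma at an unadjusted p below 0.05 there were 3 and 1, all lower in KO, against 16.3% and 10.5% of all genes. Of the 38 differences 32 were below 0 at 3 h and 28 at 6 h.

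The difference between the genotypes' changes was tested as an interaction. From 0 h to 24 h it was called in 1 gene, Ncaph, where 3.08% of all genes had a larger change in KO and 2.27% a smaller one. Ncaph differed by 0.93 ± 0.23 (adjusted p = 0.0340), and leaving out any 1 of 7 of the 8 arrays of these groups ended the call, the value running from 0.59 without WT 0 h replicate 1 to 1.05 without KO 0 h replicate 2. The exception was WT 0 h replicate 2, without which 14 genes were called. At an unadjusted p below 0.05 limma counted 10, all with the larger change in KO, against 18.7% of all genes. The median interaction was 0.25. It was 0.06 without WT 0 h replicate 1, 0.12 without KO 0 h replicate 1 or WT 24 h replicate 1, 0.37 without KO 0 h replicate 2 and 0.45 without WT 0 h replicate 2. From 6 h to 24 h, where the 0 h arrays do not enter, 0 genes were called against 2.02% of all genes. At an unadjusted p below 0.05, 7 genes were counted, 5 with the larger change in KO, against 13.2% of all genes in either direction. At 3 h and 6 h 0 genes were called, against 0.808% and 0.31% of all genes. By limma at an unadjusted p below 0.05 there were 0 at either time, against 11.9% and 9.85% of all genes.

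Other genes of the cell cycle were set beside these 38, from a list of 55 further mitotic genes and a list of 31 genes of DNA replication. Of the further mitotic genes, 30 were called higher at 24 h in WT and 41 in KO, and 3 lower in each. Of all genes, 14.2% in WT and 17.3% in KO were called higher, and 14.5% and 17.7% lower. Kif22, a chromosome-arm kinesin, changed by 1.20 ± 0.32 in WT (adjusted p = 0.0110) and by 1.85 ± 0.32 in KO (adjusted p = 3.19e-04). Spag5, the spindle protein astrin, changed by 1.05 and 1.82, and Cdca2 by 1.06 and 1.80, all called. Of the replication genes, 20 were called higher in WT and 30 in KO, with medians of 0.47 and 1.34. The WT median of the replication genes was 0.21 without WT 0 h replicate 2 and 0.70 without replicate 1. Tk1, thymidine kinase, changed by 1.27 ± 0.31 in WT (adjusted p = 0.00580) and by 2.80 ± 0.31 in KO (adjusted p = 5.58e-06). Their WT count was 4 without WT 0 h replicate 2, 27 without replicate 1 and 5 without WT 24 h replicate 1. For the further mitotic genes the WT count was 16 without WT 0 h replicate 2, where their median was 0.18 in place of 0.33, and 20 without WT 24 h replicate 2.

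At 24 h the median KO minus WT was 0.60 in the 31 replication genes, with 18 called higher and 0 lower. It was 0.07 in the 55 further mitotic genes, with 10 called higher and 0 lower, and -0.07 in the 38 genes described here, with 0 called. Of all genes, 6.18% were called in either direction. Without WT 24 h replicate 2 the last median was 0.03. E2f1, a transcription factor of S phase genes, was 0.99 ± 0.22 higher in KO (adjusted p = 0.0143). The replication count was 3 without KO 24 h replicate 1, 6 without KO 24 h replicate 2 and 3 without WT 24 h replicate 2, while the median stayed between 0.49 and 0.70 with any 1 of the 4 arrays left out. The count of further mitotic genes was 0 to 2 with any 1 array left out. As list means relative to the 17 arrays, the 38 genes stood at 0.75 and 0.96 in WT at 24 h and at 0.79 and 0.76 in KO. The replication genes stood at 0.67 and 0.44 in WT and at 1.17 and 1.04 in KO. The difference between the lists was not tested.

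**Figure D4:**
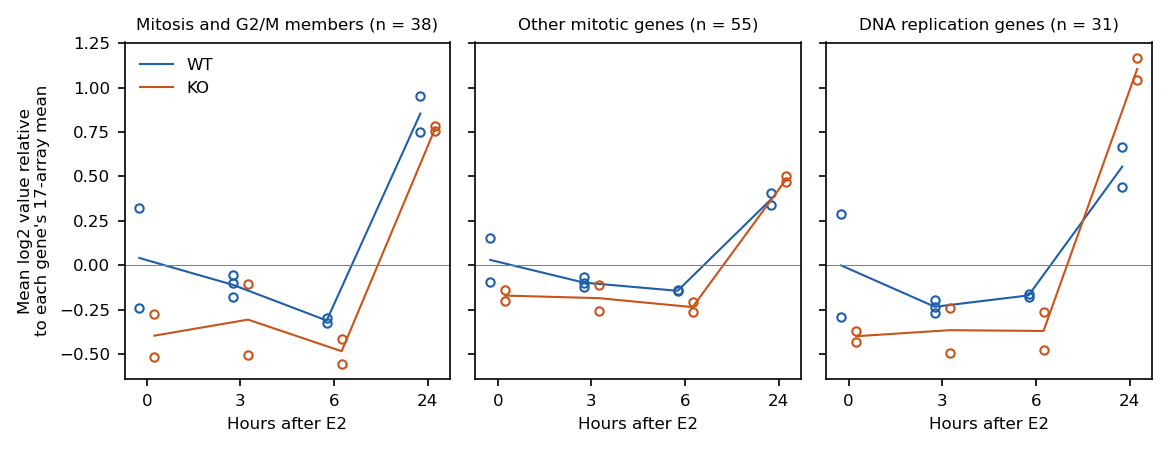
Mean log2 value over the 38 mitosis and G2/M genes, 55 further mitotic genes and 31 DNA replication genes on each array, relative to each gene's mean over 17 arrays, against hours after E2 (evenly spaced), with lines through the group means. At 24 h the WT and KO arrays of the 38 genes lie together between 0.75 and 0.96, and for replication genes both KO arrays lie above both WT arrays.

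Marker lists of uterine cell types moved with time as well. Markers of epithelium, stroma and smooth muscle were above the array median on all 17 arrays in 9 of 10, 8 of 8 and 5 of 6 genes, and those of ovary and oviduct in 1 of 4. The epithelial mean relative to the 17 arrays was 0.62 and 0.61 in WT at 24 h and 0.37 and 0.30 in KO, against -0.13 and -0.29 in WT at 0 h and -0.19 and -0.14 in KO. The stromal mean was 0.61 and 0.25 in WT at 0 h, between -0.46 and -0.22 at 3 h and 6 h, and 0.49 and 0.44 at 24 h, and in KO it was 0.12 and 0.38 at 0 h, between -0.37 and -0.15 at 3 h and 6 h, and 0.25 and 0.39 at 24 h. It was thus lower at 3 h and 6 h than at 0 h and 24 h on every array of both genotypes. The adipocyte mean was 0.57 and 0.95 in WT and 1.16 and 1.22 in KO at 0 h, above every later array, and -0.31 and -0.53 in WT and -0.52 and -0.21 in KO at 24 h. KO 0 h replicate 2 had a granulocyte mean of 1.64 against -0.04 in replicate 1, and a macrophage mean of 1.21 against 0.40. KO 3 h replicate 2 was above replicate 1 in the macrophage mean (0.44 against -0.14) and the adipocyte mean (0.33 against -0.56). The part of these in the results was not tested. The Egr1 probe had a mean at 0 h of 13.55 ± 0.11 (SD, n = 2) in KO against 12.37 ± 0.19 in WT. At 3 h the KO mean was the lower, at 14.64 ± 0.07 against 14.79 ± 0.20 (n = 3). At 6 h it was 14.65 ± 0.14 against 13.91 ± 0.09, and at 24 h 13.39 ± 0.17 against 11.74 ± 0.49. The labels do not place that probe against the deleted part, so it checks nothing about them.

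For 27 of the 38 genes the array held more than 1 probe. Of the 22 genes called at 24 h in WT that had other probes, 12 had at least 1 that changed by under 25% of the reported change or the opposite way, and so had 13 of 23 in KO. In both genotypes these were Anln, Cdc25c, Cdk1, Ect2, Espl1, Kif11, Kif23, Ndc80, Nusap1, Prc1 and Top2a, with Cenpa in WT and Cdc20 and Ttk in KO. Those probes were dimmer than the reported ones by rule, since the brightest was reported, and had mean values up to 9.28. The probe at 9.28, of Kif23, changed by 0.20 in WT and 0.36 in KO, where the reported probe changed by 1.33 and 2.26. The other probes of Birc5, Cdca3, Cdca8, Kif4, Mad2l1, Melk, Ncaph and Spc25 rose by at least that share in both genotypes.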

How the data were processed

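Uterine RNA of 17 arrays in 8 groups was analysed from the deposited table, whose log2 values per probe the authors computed from unavailable raw data, with BeadStudio named in the submitters' processing notes (version not stated). All 17 columns had identical sorted values, so they were quantile normalized, and the median of each was 8.20. No pseudocount or background correction was added. The platform annotation gave 1 gene symbol for 34885 of 45281 probes, several for 18 and none listed for 10378, and 34807 matched RefSeq by Entrez ID. The brightest probe stood for each of 19057 genes. Changes came from limma 3.58.1 in R 4.3.3, with 1 mean per group, empirical Bayes moderation without a trend, two-sided tests and Benjamini-Hochberg adjustment over all 19057 genes, and no filter on low values. The fit was checked on simulated data for WT at 24 h against 0 h, with independent noise for each gene. That check does not cover shifts that these genes share on an array. The genes and lists were chosen with earlier results of these data known. Within each role, up to 3 genes with the smallest F-test p over the 8 groups, and every gene called at 3 h, at 6 h, between genotypes or as an interaction, were given array by array (27 genes). Alternatives were a low-value filter, the mean of probes, a trend, fits on the compared groups alone, median centring, a floor at the array median, replicate blocks and leaving out each array. With 2 or 3 arrays a group, their number limits the precision.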

Additional observations from a re-analysis of the deposited data

Results flagged for a closer look

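Ncaph, the condensin I subunit, was the 1 gene of the 38 whose change from 0 h to 24 h differed between the genotypes by the interaction test. The KO change of 1.76 exceeded the WT change of 0.83 by 0.93 (limma adjusted p = 0.0340). The call was lost on leaving out any 1 of 7 of the 8 arrays, with a value of 0.59 without WT 0 h replicate 1, and in a fit on these 4 groups alone (adjusted p = 0.10). Groups of 2 or 3 arrays were too small for a test of single arrays as outliers.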

How the results depend on the processing

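The calls at 24 h against 0 h and against 6 h kept their direction under every alternative, and no gene's called change reversed. With 1 array left out the genes called higher at 24 h against 0 h numbered 21 to 29 in WT and 27 to 29 in KO, and against 6 h 28 to 30 in WT and 27 to 29 in KO, with 0 to 1 lower in KO. Left-out arrays moved the counts called in WT at 3 h to 1 to 2 higher and 1 to 20 lower, and in WT at 6 h to 1 to 25 lower. In KO they gave 1 to 2 lower at 3 h and 1 to 2 lower at 6 h. KO was called lower in 0 to 21 genes at 0 h and 0 to 1 at 24 h, and higher in 0 to 1 at 6 h. The interaction had 0 to 3 higher at 3 h, 0 to 2 at 6 h and 0 to 14 at 24 h.

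A floor at the array median gave 1 gene called lower in WT at 3 h, 4 in WT at 6 h and 1 in KO at 6 h. It gave 0 lower in KO against WT at 0 h, 2 higher and 2 lower at 24 h, and 2 higher for the interaction at 24 h and 2 from 6 h to 24 h. Fits on the compared groups alone gave 22 higher in WT from 0 h to 24 h, 2 lower in WT at 6 h, 1 lower in WT from 6 h to 24 h, 0 lower in KO against WT at 0 h, 6 higher and 6 lower at 24 h, and 0 and 6 higher for the interactions at 24 h and from 6 h. A low-value filter, which kept 37 of the 38 genes, gave 2 lower at 0 h and 1 at 24 h in KO against WT and 2 higher for the interaction at 24 h. An intensity trend gave 2, 2 and 2. The mean of all probes gave 0, 1 and 0. The cause of these shifts was not tested. Centring each array changed no call of the 38 genes.

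No label says whether replicate numbers pair the arrays, and KO 3 h replicates 1 and 2 carry the title letters B and C. Deviations of same-numbered arrays correlated between -0.18 and 0.28 over 28 pairs of groups, 5 of them above 0.1. These values were not set against a reference, and same-lettered arrays were not correlated, so they do not settle whether arrays were paired. With the replicate number as a block, KO against WT had 0 called lower at 0 h and 1 at 24 h. With the title letter as a block instead, WT had 5 lower at 3 h, KO against WT had 0 lower at 0 h and 1 at 24 h, and the interaction at 24 h had 2 higher. Signal limits the 11 dim genes, whose values lie near the array median.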
